A study of Drosophila melanogaster with 36 samples.

Results

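The gap, terminal and head gap genes divide the early fly embryo into broad regions along its head-to-tail axis. Of these, 10 genes were examined in Drosophila melanogaster embryos: the gap genes hb, Kr, kni, knrl and gt, the terminal genes tll and hkb, and the head gap genes oc, ems and btd. Every probe set that the array's annotation assigns to these genes was taken, which gave 11 of the 18769 non-control probe sets tested and 10 of 11982 genes. The gene gt had 2 probe sets, 1629953_at and 1632684_s_at, and each other gene had 1. RNA was measured on Affymetrix one-colour arrays of embryos at 5 h and 8 h from 9 isogenic lines, which are fly stocks bred until their members carry nearly the same genome. The lines are called here, after their array titles, Drosophila_17, Drosophila_23, Drosophila_58, Drosophila_75, Drosophila_83, Drosophila_89, Drosophila_128, Drosophila_134 and Drosophila_145. All groups were untreated as far as the labels say, and no allele or transgene is named. There were 2 RNA samples for each line and time, 36 arrays in all. The labels do not state whether the 2 samples were collected separately, so a p-value among lines rests on the spread between RNA samples, which may be technical.

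Maternal proteins deposited in the egg switch the gap genes on in wide, overlapping bands before and during cellularisation, and the gap proteins, all transcription factors, then repress each other and place the stripes of the pair-rule genes. The terminal genes respond to the Torso receptor at both poles, and the head gap genes respond to the anterior Bicoid gradient together with Torso. After gastrulation most of these genes are used again. Examples are hb and Kr in neuroblasts, the neural stem cells, and kni and knrl in the tracheal system. Others are tll in the brain, and oc and ems in the head and nervous system. Each array here averages a whole collection of embryos, so fewer expressing cells and less RNA in each cell cannot be told apart.

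Array brightness differed before normalisation. The total deposited intensity ran from 46261 to 309710, with a median of 180506 at 5 h and 124675 at 8 h. To set a background limit, 50 control probe sets were taken as negative controls by their names, a role that no source used here states. The limit was their 99th percentile on each array and ran from 1.62 to 2.98. An array had between 3156 and 8128 probe sets above it, and the 6183 that passed it on 18 or more of the 36 arrays are called measured. All 11 probe sets of the gap, terminal and head gap genes were measured. The line of 1 array at 5 h is not given in its title. That array enters the ranges over arrays below, and no fit or mean. Line Drosophila_17 therefore had 1 array at 5 h. The levels below are quantile-normalised intensities. Differences are on the log2(intensity + 16) scale, which understates the change of dim probe sets such as these, since 91.3% of all normalised values lay under 16. Markers of the ovary, which would mark maternal tissue carried over, were low: 1 of 12 yolk and eggshell genes was measured, and limma called 0 of them for time (0 also at an unadjusted p under 0.05) or among lines (1 at an unadjusted p under 0.05).

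**Figure D1:**
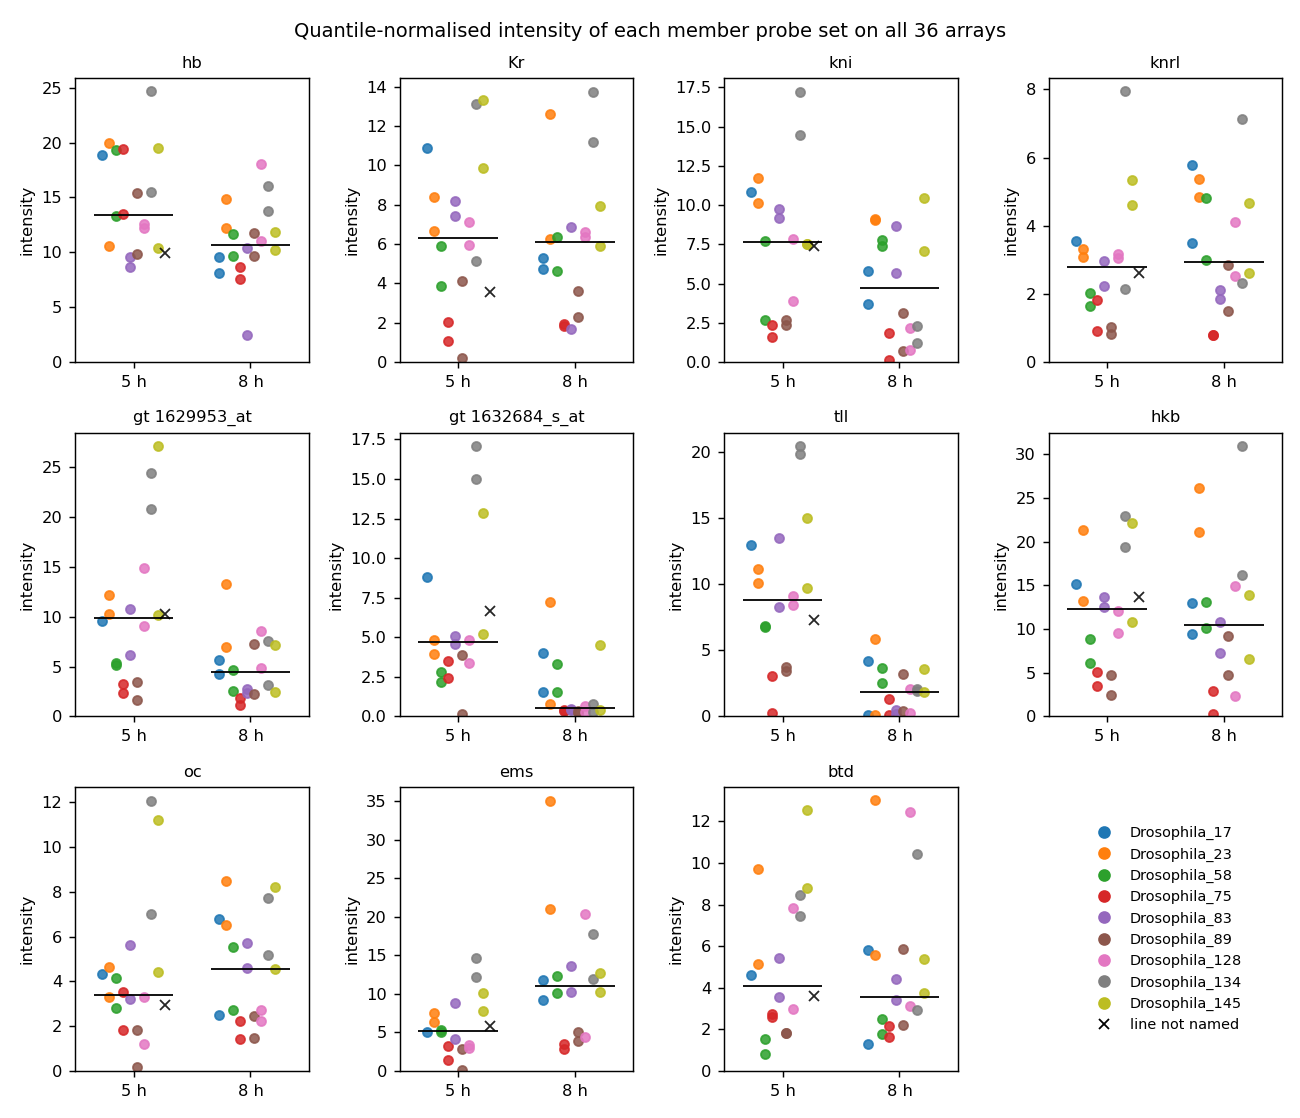
Quantile-normalised intensity (linear axis, arbitrary units, from 0) of each probe set on the 18 arrays at 5 h and the 18 arrays at 8 h. Each point is 1 array, coloured by line, the cross is the array whose title names no line, and the bar is the median of the time. For tll 14 of the 18 arrays at 5 h lie above every array at 8 h, and the arrays of line Drosophila_75 lie near the bottom of most panels.

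The first comparison asked how these genes changed between 5 h and 8 h. Of the 11 probe sets, tll and both probe sets of gt fell, ems rose, and the other 7 did not pass the test. The test was limma on the means of each line and time with line as a block, with Benjamini-Hochberg adjustment over all 18769 probe sets at an adjusted p of 0.05. It called 7.52% of all probe sets, 3.85% rising and 3.67% falling, and 28.0% when fitted on measured probe sets alone, where 5 of the 11 were called, hb being the addition. The median change of the 11 was -0.05, beside 0.00 over all probe sets tested.

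Among the gap genes, gt encodes a basic leucine zipper repressor that is active in an anterior and a posterior domain. On the arrays at 5 h, gt probe set 1629953_at read 1.69 at the lowest, 9.88 at the median and 27.1 at the highest. The corresponding values at 8 h were 1.15, 4.44 and 13.2. The ranges overlapped, and 4 of the 18 arrays at 5 h lay above every array at 8 h. The mean over lines fell from 10.3 ± 6.79 to 4.92 ± 2.49 (SD, n = 9 lines), a log2 change of -0.30 ± 0.08 (SE; limma adjusted p = 0.021), and the change was downward in 8 of 9 lines. The exception was Drosophila_89, at 0.15. This call was lost without any of 3 lines, Drosophila_83 (limma adjusted p = 0.058), Drosophila_134 (0.06) or Drosophila_145 (0.066). Without the arrays of RNA sample 2 the change was -0.18 (limma adjusted p = 0.42).

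The other gt probe set, 1632684_s_at, carries the suffix that Affymetrix gave to probe sets whose probes match several transcripts. It ranged from 0.173 to 17.1 at 5 h, with a median of 4.71, and from 0.201 to 7.24 at 8 h, with a median of 0.545. Of 18 arrays at each time, 17 exceeded the background limit at 5 h and 3 at 8 h, these being 1 array each of Drosophila_17, Drosophila_23 and Drosophila_58. Its mean fell from 6.08 ± 4.51 to 1.53 ± 1.40 (SD, n = 9 lines), or by 0.31 ± 0.07 (SE) on the log2 scale, downward in 9 of 9 lines (limma adjusted p = 0.0054). This call too was lost without RNA sample 2 (-0.27; limma adjusted p = 0.13). Both gt probe sets therefore fell, and the drop below background at 8 h was seen for 1632684_s_at.

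The product of hb is a zinc finger protein that is supplied by the mother and transcribed again in the front of the embryo. Its probe set, 1624490_s_at, carries the same suffix as gt 1632684_s_at. It was above the limit on all 18 arrays of each time. At 5 h hb read 8.64 at the lowest, 13.4 at the median and 24.7 at the highest, against 2.47, 10.7 and 18.1 at 8 h. The groups overlapped in most of their range, with 6 arrays at 5 h above every array at 8 h. The difference was downward in 8 of 9 lines but did not pass the test on normalised values (-0.20 ± 0.07, SE; limma adjusted p = 0.076). On the deposited scale hb fell by 0.47 ± 0.09 (SE; limma adjusted p = 0.00035), where 17.5% of all probe sets were called, so its call depends on the scaling. Of the 3276 probe sets called for time on that scale, 2948 fell and 328 rose.

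The abdominal gap gene kni encodes a zinc finger protein of the nuclear receptor family. At 5 h kni ranged from 1.56 to 17.2 with a median of 7.62, and at 8 h from 0.111 to 10.5 with a median of 4.69. It was above the limit on 17 arrays at 5 h and on 11 at 8 h. The line means averaged 7.80 ± 4.46 and 4.83 ± 3.37 (SD, n = 9 lines). Their difference of -0.19 ± 0.07 (SE) was downward in 7 of 9 lines and did not pass the test (limma adjusted p = 0.15). On the deposited scale, where 17.5% of all probe sets were called, most of them falling, kni fell by 0.26 ± 0.07 (SE; limma adjusted p = 0.006). The lines disagreed about kni, as described below.

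Its close relative knrl encodes a similar protein and lies on the same chromosome arm, with 7 annotated genes between them, 1 of them protein coding. The intensity of knrl was low at both times, from 0.82 to 7.96 with a median of 2.79 at 5 h and from 0.785 to 7.12 with a median of 2.92 at 8 h, above the limit on 11 and 10 arrays. The change in knrl was 0.03 ± 0.04 (SE; limma adjusted p = 0.76), upward in 5 lines and downward in 4. The zinc finger repressor gene Kr, which marks the middle of the early embryo, likewise kept its median, at 6.32 on the arrays at 5 h and 6.09 at 8 h. Its ranges, 0.219 to 13.3 and 1.67 to 13.8, covered each other almost fully. The difference for Kr was -0.05 ± 0.06 (SE; limma adjusted p = 0.73). On the deposited scale Kr fell by 0.16 ± 0.06 (SE; limma adjusted p = 0.047), beside 17.5% of all probe sets called, most of them falling.

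The terminal gene tll, an orphan nuclear receptor gene needed at both ends of the embryo and later in the brain, gave the largest change with time of the 11. At 5 h tll read 0.226 at the lowest, 8.79 at the median and 20.5 at the highest. At 8 h it read 0.0784, 1.89 and 5.88. The 4 arrays at 5 h that did not exceed every array at 8 h were those of lines Drosophila_75 and Drosophila_89. The number of arrays above background dropped from 17 of 18 to 5 of 18. Line means fell from 9.77 ± 5.50 to 1.89 ± 0.99 (SD, n = 9 lines), and the mean intensity at 8 h was 0.194 times that at 5 h. The log2 change was -0.50 ± 0.07 (SE; limma adjusted p = 0.00014), downward in 9 of 9 lines. When each line or each RNA sample number was left out in turn, the change in tll stayed between -0.44 and -0.55 and past the threshold in all 11 of these fits.

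The other terminal gene, hkb, which encodes a zinc finger repressor that limits the mesoderm and sets the gut ends, did not move with it. Its lowest, median and highest intensities were 2.50, 12.3 and 22.9 at 5 h and 0.251, 10.5 and 30.9 at 8 h. The widest spread among arrays of one time was thus at 8 h, and the groups overlapped. The change in hkb was -0.04 ± 0.07 (SE; limma adjusted p = 0.85), up in 4 lines and down in 5. On the deposited scale hkb fell by 0.28 ± 0.08 (SE; limma adjusted p = 0.01), beside 17.5% of all probe sets called, most of them falling.

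Of the head gap genes, ems, a homeobox gene of the head that is expressed again in each trunk segment and the brain, rose. Its intensity at 5 h ranged from 0.101 to 14.6 with a median of 5.18. At 8 h it ranged from 2.82 to 35.02 with a median of 11.045. The groups overlapped, and 4 arrays at 8 h lay above every array at 5 h. Line means rose from 5.88 ± 3.68 to 12.0 ± 7.09 (SD, n = 9 lines), a log2 change of 0.33 ± 0.07 (SE; limma adjusted p = 0.0062), upward in 9 of 9 lines. The rise was smaller and not called on the deposited scale (0.15 ± 0.07, SE; limma adjusted p = 0.12), with arrays centred on their median (0.16; limma adjusted p = 0.096, beside 15.4% of all probe sets called) and with array brightness as a covariate (0.25; limma adjusted p = 0.071, beside 5.42%). It was also not called without RNA sample 2 (0.23; limma adjusted p = 0.19).

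The homeobox gene oc, also called orthodenticle, and the Sp1-like zinc finger gene btd stood near the same level at both times. Arrays gave oc intensities of 0.187 to 12.1 (median 3.40) at 5 h and 1.42 to 8.49 (median 4.57) at 8 h. For btd they gave 0.801 to 12.6 (median 4.10) and 1.29 to 13.0 (median 3.57). The changes were 0.01 ± 0.05 for oc (SE; limma adjusted p = 0.92) and -0.02 ± 0.05 for btd (SE; limma adjusted p = 0.89), each with lines in both directions.

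**Figure D2:**
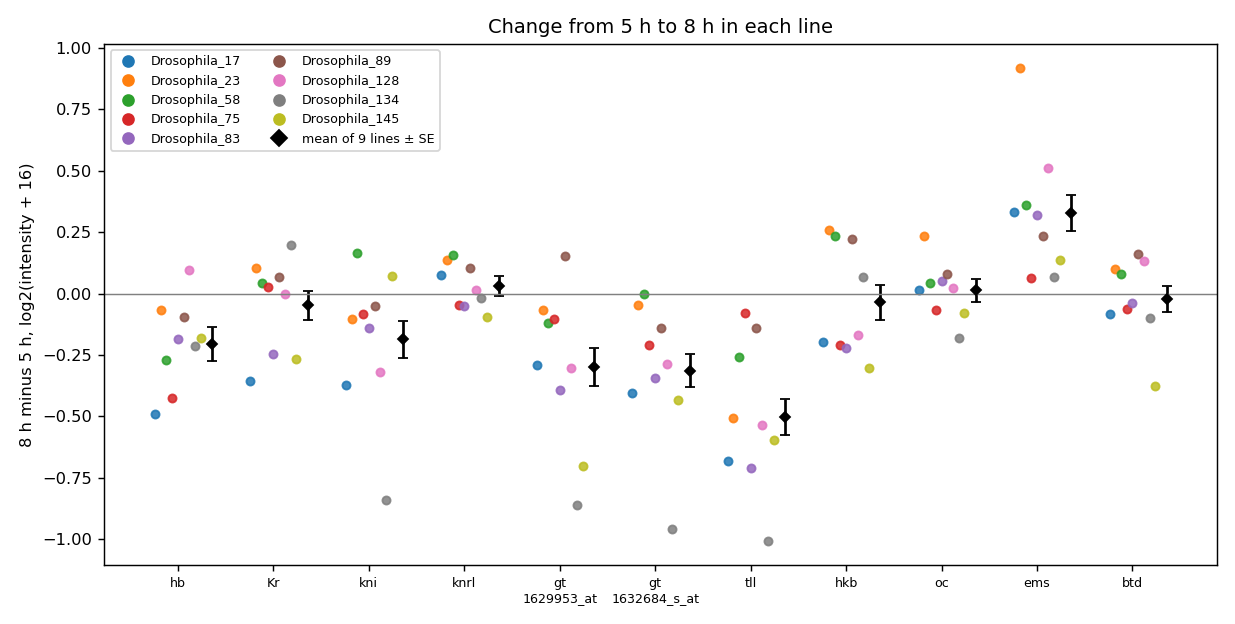
Change from 5 h to 8 h in log2(intensity + 16) for each probe set, with 1 coloured point for each of the 9 lines and a black diamond for the mean over lines with its SE. All 9 lines lie below 0 for tll and for gt 1632684_s_at and above 0 for ems, and Drosophila_134 is the lowest point for kni, tll and both gt probe sets.

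Genes that act before, beside and after these regulators moved in both directions over the same interval. Their counts are to be read against the 7.52% of all probe sets called for time and the 28.0% called in the fit on measured ones, since most list genes were measured, and several counts are near the latter share. Fewer were measured in the Hox list, 1 of 4, and in the tracheal list, 2 of 5. Of 13 maternal axis genes analysed, 4 fell and 2 rose, with a median change of -0.08. The germ plasm gene osk fell by 0.55 ± 0.13 (SE; limma adjusted p = 0.0087), swa, which helps to place bicoid RNA, by 0.45, and the posterior homeobox gene cad by 0.45. Of 8 pair-rule genes, which read the gap proteins, 3 fell and 1 rose, with a median of -0.24. Among these, eve fell by 0.35, ftz by 0.37 and prd by 0.28 (limma adjusted p = 0.0056, 0.003 and 0.028), while the transmembrane protein gene Ten-m rose by 0.38.

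Genes that act later in the head and termini were also examined. Of 11 analysed, 4 rose and 1, cad, fell, and the median was 0.14. The risen genes included the head segment gene kn at 0.29 ± 0.06 (SE), and drm and bowl, zinc finger genes of the odd-skipped family, at 0.31 and 0.27 (limma adjusted p = 0.0021, 0.001 and 0.0018). Of 4 Hox genes analysed, Antp rose by 0.43 (limma adjusted p = 0.00083) and the other 3 did not pass the test. In the list of neuroblast and temporal factor genes, which act in the neural stem cells where hb and Kr are used again, 5 of 12 rose and 0 fell by limma (6 and 1 at an unadjusted p under 0.05), with a median of 0.13. Among them wor, a zinc finger gene of neuroblasts, rose by 0.38, the POU gene pdm2 by 0.50 and the fate determinant gene pros by 0.42.

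Lists of other cell types in the embryo moved as well. Of 9 amnioserosa genes 5 rose and 1 fell, and of 5 tracheal genes 3 rose and 0 fell by limma (0 also at an unadjusted p under 0.05). The tracheal risers vvl and verm were not among the measured probe sets. In the amnioserosa list the extra-embryonic regulator zen fell by 0.63 ± 0.08 (SE; limma adjusted p = 5.4e-05), whereas the zinc finger gene peb rose by 0.66 and the peptidase gene Ance by 0.64. Of 7 germ cell genes 4 fell and 1 rose. These lists show which other cell types' genes moved between the times, and their part in the values of the 11 probe sets was not tested.

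The next comparison asked whether the lines differed. Over both times together, 9 of the 11 probe sets differed among lines by limma's moderated F test at an adjusted p of 0.05, where 19.5% of all probe sets did so and 60.6% in the fit on measured probe sets alone. The exceptions were hb (adjusted p = 0.16) and knrl (adjusted p = 0.061). At 5 h 8 of 11 differed, beside 7.45% of all probe sets (28.5% of measured ones). At 8 h 4 of 11 differed, namely ems, kni, Kr and hkb, beside 18.4% of all (53.9% of measured ones). Measured probe sets as a whole were often called, and all 11 here were measured, so the counts are to be read against the higher shares, beside which the fit on measured probe sets called 10, 9 and 4 of the 11.

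The largest span among line means over both times was that of hkb, 1.01 log2 units (limma adjusted p = 9.5e-06). At 5 h its arrays read 3.47 and 5.11 in Drosophila_75, 4.74 and 2.50 in Drosophila_89, and 6.08 and 8.87 in Drosophila_58. They read 12.1 and 9.54 in Drosophila_128, 13.7 and 12.5 in Drosophila_83, 10.8 and 22.2 in Drosophila_145, 15.1 in Drosophila_17, 21.4 and 13.2 in Drosophila_23, and 19.4 and 22.9 in Drosophila_134. The arrays of Drosophila_75 and Drosophila_89 thus overlapped each other and lay below those of every other line. Next came Drosophila_58, whose arrays lay below those of the lines listed after it. The arrays of Drosophila_134 lay above those of Drosophila_17, Drosophila_83 and Drosophila_128, and overlapped in range with those of Drosophila_23 and Drosophila_145. At 8 h hkb read 2.86 and 0.251 in Drosophila_75 and 9.19 and 4.68 in Drosophila_89. The highest lines at 8 h were Drosophila_23, at 21.1 and 26.2, and Drosophila_134, at 16.2 and 30.9. These pairs lay above every array of the remaining 7 lines at 8 h, the highest of which was 14.9 in Drosophila_128.

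For ems the span over both times was 0.75 (limma adjusted p = 5.1e-05), and it was wider at 8 h, 1.18, than at 5 h, 0.76. The change of ems with time was not called as differing between lines (limma F test, adjusted p = 0.37). At 8 h ems read 3.50 and 2.82 in Drosophila_75 and 3.88 and 5.11 in Drosophila_89, against 21.0 and 35.02 in Drosophila_23. The arrays of Drosophila_128 stood far apart, at 4.43 and 20.4, and those of the other 5 lines ran from 9.21 in Drosophila_17 to 17.8 in Drosophila_134 without a clear break between neighbours. At 5 h the order was different at the top, with 14.6 and 12.1 in Drosophila_134 and 7.57 and 6.39 in Drosophila_23. The adjusted p among lines at 5 h was 0.05 after rounding, just inside the threshold by limma's F test. When each array was left out in turn, ems was called at 5 h in 7 of 34 fits.

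The gene kni differed among lines at 5 h (span 0.82; limma adjusted p = 0.00011), at 8 h (0.57; adjusted p = 0.0003) and in its change. At 5 h the 2 arrays of Drosophila_134 read 17.2 and 14.5, above all others, and the next were Drosophila_23 at 11.7 and 10.1, Drosophila_17 at 10.9 and Drosophila_83 at 9.19 and 9.73. The lowest were Drosophila_75 at 1.56 and 2.37 and Drosophila_89 at 2.70 and 2.37, and 1 array of Drosophila_58 lay with them, at 2.70, while its other array read 7.71. At 8 h Drosophila_134 was among the lowest, at 1.21 and 2.32, beside Drosophila_128 at 0.767 and 2.18, Drosophila_75 at 0.111 and 1.82 and Drosophila_89 at 3.14 and 0.709. The other 5 lines lay between 3.70 in Drosophila_17 and 10.5 in Drosophila_145. On normalised values line Drosophila_134 therefore went from the top to the bottom group of kni levels within the interval.

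Kr differed at both times (span 0.65 at 5 h, limma adjusted p = 0.01; span 0.67 at 8 h, adjusted p = 0.011). In Drosophila_75 it read 2.03 and 1.08 at 5 h and 1.91 and 1.82 at 8 h. Drosophila_89 gave 4.14 and 0.219, then 2.27 and 3.61. The upper end was Drosophila_145 at 5 h, with 9.89 and 13.3, and Drosophila_134 at 8 h, with 11.2 and 13.8. The arrays of Drosophila_134 at 5 h, 5.13 and 13.1, spanned those of Drosophila_17, Drosophila_23, Drosophila_83 and Drosophila_128. At 8 h the arrays of Drosophila_83, 6.84 and 1.67, spanned those of Drosophila_17, Drosophila_58 and Drosophila_128, so that these lines had no clear order.

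Lines were called for tll and gt at 5 h and not at 8 h, and the test of whether the change differed, given below, was passed by tll and by neither gt probe set. For tll the span among lines was 1.04 at 5 h (limma adjusted p = 4.9e-05) and 0.22 at 8 h (adjusted p = 0.84). Line Drosophila_134 stood highest at 5 h, at 19.9 and 20.5. The arrays of Drosophila_17 at 13.0, Drosophila_145 from 9.75 upward, Drosophila_83 at 8.28 and 13.5 and Drosophila_23 at 11.2 and 10.1 overlapped one another, and Drosophila_128, at 8.46 and 9.11, overlapped Drosophila_83. Below all of these came Drosophila_58 at 6.75 and 6.87, Drosophila_89 at 3.71 and 3.43, and Drosophila_75 at 0.226 and 3.08. The arrays of Drosophila_58 and Drosophila_89 were clear of each other, while Drosophila_89 and Drosophila_75 differed by less than the spread of the Drosophila_75 pair. Neighbouring lines were not tested against each other.

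For gt probe set 1629953_at the span was 1.05 at 5 h (limma adjusted p = 0.00021), from 2.36 and 3.25 in Drosophila_75 and 3.44 and 1.69 in Drosophila_89 to 20.8 and 24.4 in Drosophila_134. The second highest line, Drosophila_145, was spread from 10.2 to 27.1. At 8 h the lines were not separated for this probe set (limma adjusted p = 0.28). Probe set 1632684_s_at gave the same ends, with 17.07 and 15.03 in Drosophila_134 and, in Drosophila_89, 3.89 and 0.173 (span 0.84 at 5 h; limma adjusted p = 0.00048), but its lowest line mean at 5 h was close to those of Drosophila_58, at 2.80 and 2.15, and Drosophila_75, at 2.44 and 3.51. At 8 h it too was not called (adjusted p = 0.52).

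Of the head gap genes oc and btd, oc differed at 5 h by a span of 0.58 (limma adjusted p = 0.041), from 0.187 and 1.83 in Drosophila_89 to 12.1 and 7.01 in Drosophila_134, and this call held in 21 of 34 fits that left out 1 array. For btd the lines differed over both times (span 0.45; limma adjusted p = 0.011) and not at either time alone (adjusted p = 0.083 and 0.23). At 5 h its lowest arrays were those of Drosophila_58, 0.801 and 1.52, with both below the background limit, and its highest those of Drosophila_145, 12.6 and 8.80. For hb, not called among lines, the pair of Drosophila_75, low for most other genes, read 13.5 and 19.4 at 5 h, inside the range of the other lines. The lowest pair for hb at 5 h was that of Drosophila_83, at 8.64 and 9.53. For knrl the 2 arrays of Drosophila_134 stood further apart, at 7.96 and 2.13, than most lines did from each other.

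**Figure D3:**
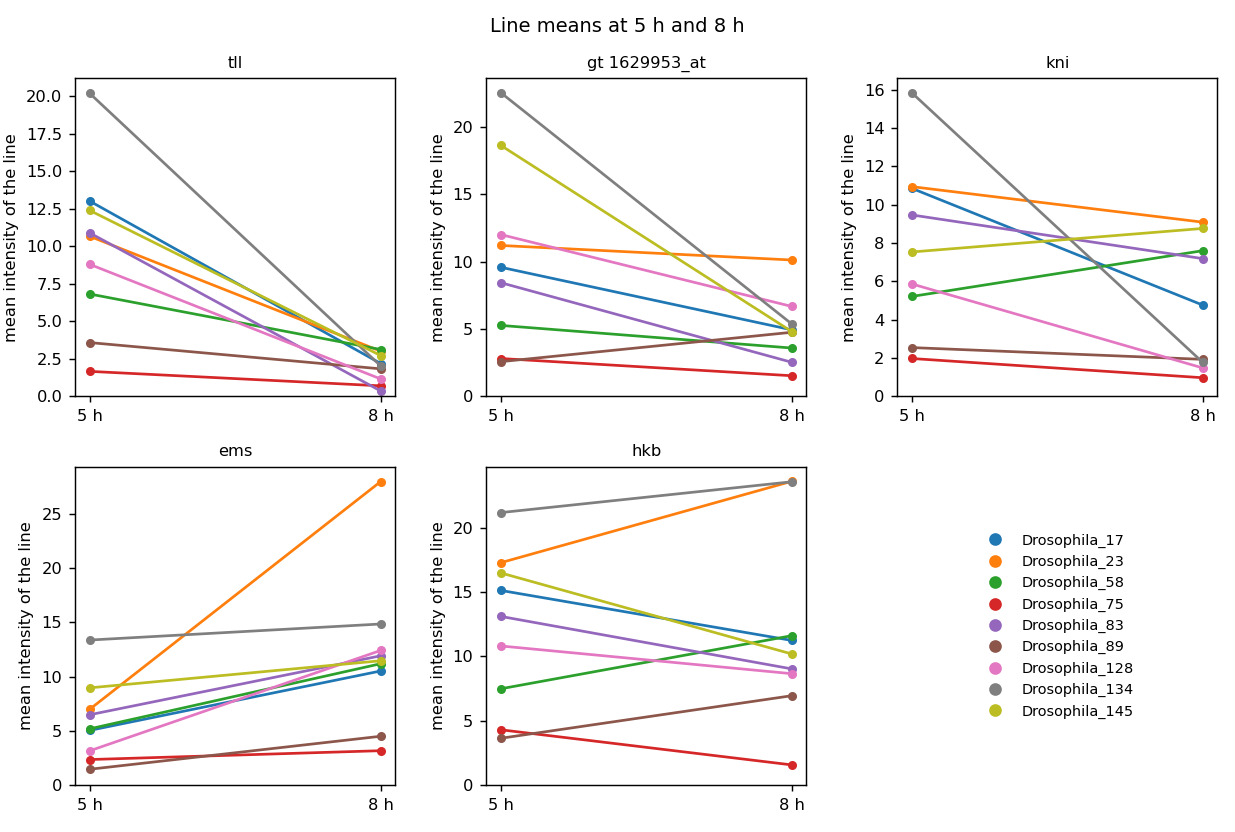
Mean quantile-normalised intensity of each line at 5 h and at 8 h for 5 probe sets (linear axes from 0, a coloured line for each fly line). Lines fan out at 5 h and come together at 8 h for tll and gt 1629953_at, cross for kni, and fan out at 8 h for ems.

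Set against the mean of the other 8 lines over both times, 4 lines stood out. Drosophila_75 was lower for all 11 probe sets, with 6 of them called: hkb at -0.59 ± 0.10, ems at -0.42 ± 0.09, gt 1629953_at at -0.38 ± 0.09, kni at -0.37 ± 0.06, Kr at -0.37 ± 0.08 and tll at -0.34 ± 0.07 (SE; limma adjusted p from 0.00012 to 0.004). Over all probe sets 3.53% were called lower in that line. Drosophila_89 was also lower for all 11, with 5 called, hkb at -0.40, ems at -0.40, kni at -0.30, Kr at -0.30 and oc at -0.24, beside 1.37% of all probe sets called lower. Drosophila_134 was higher for all 11, and 7 were called, from hkb at 0.55 to oc at 0.26, beside 3.63% of all called higher. Drosophila_23 was higher for all 11 with 3 called, hkb at 0.47, ems at 0.43 and kni at 0.28, beside 0.815%. In Drosophila_145 all 11 were higher too and limma called 0 of them (6 at an unadjusted p under 0.05), beside 1.94% of all called higher. Limma also called 0 in Drosophila_17, Drosophila_58, Drosophila_83 and Drosophila_128 (0, 2, 2 and 2 at an unadjusted p under 0.05), where 0.65% of all probe sets were called higher in the first and 3.09%, 0.25% and 0.821% lower in the other 3. These contrasts share the same arrays and are not independent of one another.

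**Figure D4:**
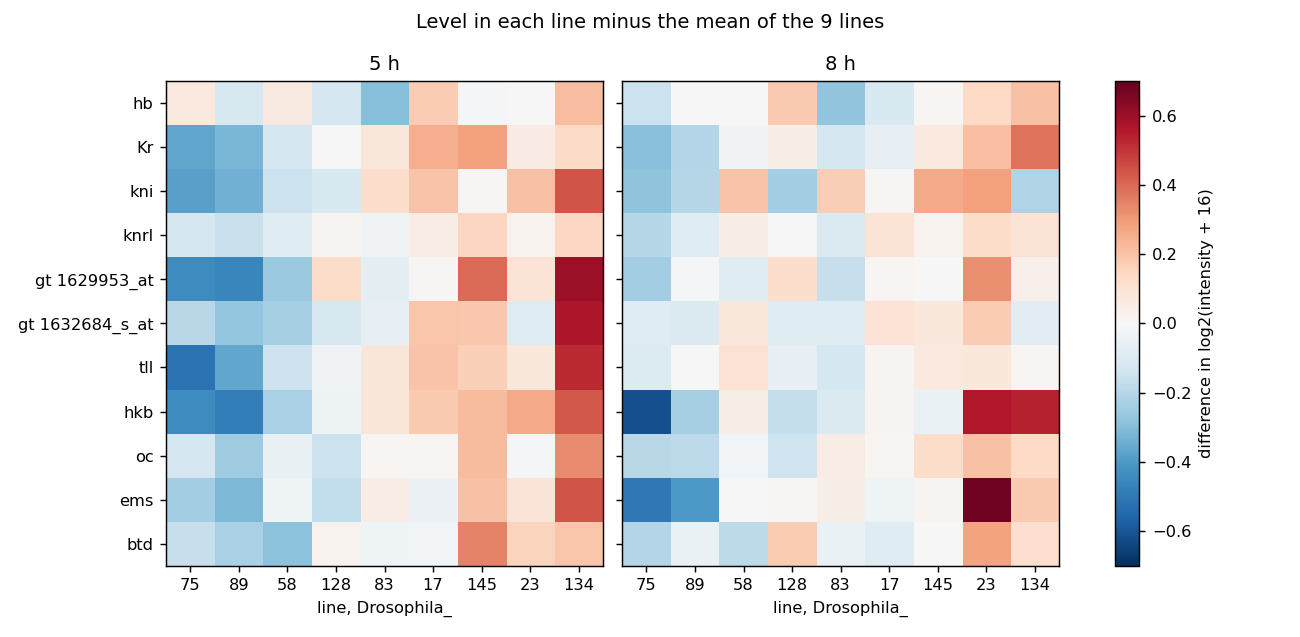
Level of each probe set in each line minus the mean of the 9 lines, in log2(intensity + 16), at 5 h and at 8 h. Red is higher and blue is lower, and the lines run from low on the left to high on the right. The columns of Drosophila_75 and Drosophila_89 are blue for nearly all genes at both times, and that of Drosophila_134 is red at 5 h for all genes.

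Brightness and other gene lists moved with these lines. The total deposited intensity was 212329 to 266525 in Drosophila_75, 261232 to 309710 in Drosophila_89 at 5 h and 121704 to 140785 at 8 h, and 46261 to 110030 in Drosophila_134. All arrays of Drosophila_75 and the 5 h arrays of Drosophila_89 were thus bright, the 8 h arrays of Drosophila_89 lay near the 8 h median, and Drosophila_134 was dim. On the deposited scale Drosophila_75 had 5 of the 11 probe sets called lower (hkb at -0.36, tll at -0.30, kni at -0.30, Kr at -0.27 and gt 1629953_at at -0.25) and hb called higher at 0.40, where 0.97% of all probe sets were called lower and 25.2% higher. Drosophila_89 kept 3 called lower there (ems, kni and oc, beside 0.336% of all), and Drosophila_23 kept ems and hkb called higher (beside 0.432%). In Drosophila_134 limma called 0 on that scale (3 at an unadjusted p under 0.05), with 9 of 11 higher. With log2 brightness as a covariate 4 of the 11 differed among lines over both times (hkb, ems, kni and oc; limma adjusted p from 0.00017 to 0.049), beside 12.5% of all probe sets.

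Summed intensities of the neuroblast list, 9 of whose 12 genes were measured, were 39.3 in Drosophila_75 and 45.9 in Drosophila_89 at 5 h against 129.1 to 251.2 in the other lines, and 30.7 and 110.2 against 152.6 to 315.3 at 8 h. The amnioserosa list, with 9 of 9 genes measured, gave 21.4 and 21.0 against 42.9 to 70.3 at 5 h, and the pair-rule list, with 8 of 8 measured, 31.4 and 27.1 against 59.4 to 163.1. The germ cell list, with 6 of 7 measured, ran the other way at 5 h, at 117.6 and 116.2 against 65.7 to 94.9. The sums of the neuroblast, amnioserosa and pair-rule lists were thus low in both lines at 5 h. At 8 h the pair-rule sum was 21.0 in Drosophila_75, the lowest, and 59.8 in Drosophila_89, within the 35.8 to 137.0 of the other lines. The sum of the list of genes downstream in head and termini was not low at 5 h, at 64.3 and 63.3 against 51.4 to 64.4. That sum was weighted towards cad, also in the maternal list, whose mean over lines at 5 h was 27.6, followed by Doc1 at 6.43. The sum therefore does not show how the dimmer genes of that list stood in these lines. The part of these lists and of brightness in the line differences of the 11 probe sets was not tested beyond the values given.

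Without lines Drosophila_75 and Drosophila_89, a choice made after seeing the data, 2 of the 11 still differed among the other 7 lines over both times, hkb (limma adjusted p = 0.012) and gt 1629953_at (adjusted p = 0.037), beside 11.1% of all probe sets. At 5 h the 2 were both gt probe sets (adjusted p = 0.037 for 1629953_at and 0.0068 for 1632684_s_at), beside 2.5%, and at 8 h they were kni (0.01) and hkb (0.031), beside 12.2%. The changes with time were as large without those lines, where 7.26% of all probe sets were called: tll, both gt probe sets and ems were still called, gt 1629953_at at -0.39 (limma adjusted p = 0.0051) and ems at 0.38 (adjusted p = 0.0077).

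**Figure D5:**
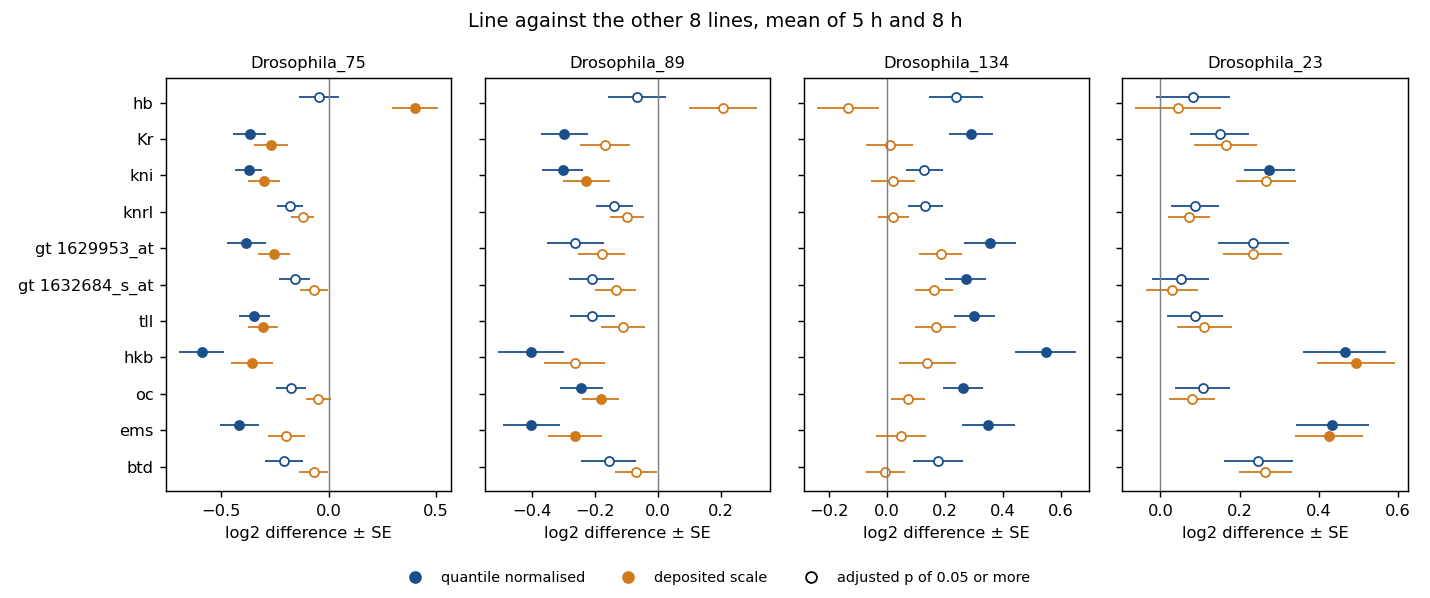
Difference of each of 4 lines from the mean of the other 8 lines, over both times, in log2(intensity + 16) with its SE, on quantile-normalised values (blue) and on the deposited scale (orange). Filled points have a limma adjusted p under 0.05. On the deposited scale Drosophila_75 keeps 5 of its 6 filled points on the lower side, and hb is filled on the higher side. Drosophila_23 keeps ems and hkb filled there, and no point of Drosophila_134 is filled.

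The last comparison asked whether the change with time itself differed between lines. It did for kni (limma moderated F on the interaction, adjusted p = 0.018) and tll (adjusted p = 0.039), 2 of 11 beside 1.37% of all probe sets and 6.68% in the fit on measured ones, where 3 of 11 were called. The s_at probe set of gt was near the threshold (adjusted p = 0.058). The change in kni ran from -0.84 in Drosophila_134 and -0.37 in Drosophila_17 to 0.16 in Drosophila_58 and 0.07 in Drosophila_145. The change in tll ran from -1.01 in Drosophila_134 to -0.08 in Drosophila_75 and -0.14 in Drosophila_89, the lines in which tll was already low at 5 h. On the deposited scale neither was called (limma adjusted p = 0.13 for kni and 0.1 for tll, beside 0.81% of all). Without Drosophila_75 and Drosophila_89 tll was not called (adjusted p = 0.45) and kni was (adjusted p = 0.038), beside 0.842%.

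Within single lines, tll fell in 5 of 9 by limma: Drosophila_134 at -1.01, Drosophila_83 at -0.71, Drosophila_145 at -0.60, Drosophila_128 at -0.53 and Drosophila_23 at -0.51 (adjusted p from 4e-06 to 0.04), where 4.05%, 1.27%, 0.858%, 0.394% and 1.8% of all probe sets fell. In Drosophila_134 kni (-0.84), gt 1629953_at (-0.86) and gt 1632684_s_at (-0.96) fell too, so that 4 of 11 fell there. The level of kni in that line went from 17.2 and 14.5 to 1.21 and 2.32, where both arrays at 8 h lay below the background limit. In Drosophila_145 gt 1629953_at also fell, at -0.70 (limma adjusted p = 0.024). The rise of ems was called within 1 line, Drosophila_23, at 0.92 (limma adjusted p = 0.00094, beside 2.43% of all probe sets rising), where it went from 7.57 and 6.39 to 21.0 and 35.02. Limma called 0 of the 11 within Drosophila_17, Drosophila_58, Drosophila_75 and Drosophila_89 (5, 1, 1 and 0 at an unadjusted p under 0.05). It called 0.186% and 0.00533% of all probe sets falling in Drosophila_17 and Drosophila_75, and 1.03% and 0.501% rising in Drosophila_58 and Drosophila_89.

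Across the 18 means of line and time, the genes' levels were related to different degrees. Pearson's r over the 55 pairs of the 11 probe sets ran from -0.07 to 0.91 with a median of 0.59. These means share arrays, normalisation and lines, so r is a description. The closest pairs were gt 1632684_s_at with tll (r = 0.912), Kr with hkb (0.894), knrl with hkb (0.875) and the pair of gt probe sets (0.861). The relatives kni and knrl stood at 0.524, and the lowest pair was tll with ems (-0.066), the gene that fell most and the gene that rose. Over the same means, with 3914 measured probe sets of other named genes as candidates, the profile most like that of tll was Z600, an early zygotic cell cycle inhibitor gene (r = 0.971), followed by halo (0.963) and bard (0.948).

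For gt probe set 1629953_at the closest were the pair-rule gene eve (0.907), the protease gene tld (0.897) and Septin5 (0.889). Probe set 1632684_s_at was closest to zen (0.937), tld (0.919) and the cellularisation gene bnk (0.895). For Kr the nearest were Ppa (0.903), neur (0.865) and Flacc (0.854), and for kni they were msl-2 (0.875), Ac78C (0.823) and the pair-rule gene hry (0.804). Flacc appeared again for hkb, at 0.912, between Fbxl7 (0.913) and the neuroectoderm gene D (0.904). The gene sina, which encodes a ubiquitin ligase first known from the eye, was among the nearest to knrl (0.899, with eEF1gamma at 0.88 and Smu1 at 0.878), ems (0.906, with Doc1 at 0.898 and eya at 0.895) and oc (0.833, after AnxB11 at 0.845 and before RhoGAP19D at 0.811). For btd they were Prp40 (0.88) and 2 probe sets of Sxl (0.874 and 0.852). No gene came as close to hb, whose nearest were TSG101 (0.768), Pino (0.73) and r2d2 (0.728).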

How the data were processed

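The authors deposited intensities on a linear scale for 18952 probe sets on each of 36 arrays, made per the labels' protocols from TRIzol RNA with one-cycle cDNA synthesis and biotin-labelled cRNA. The sources used here do not state the software that made the intensities or whether it scaled them. The 183 control probe sets were left out, values were quantile normalised and log2(intensity + 16) was taken. Tests were run in limma 3.58.1 (R 4.3.3), with the prior variance following the mean and p-values adjusted by Benjamini-Hochberg over the 18769 other probe sets. Times were compared on 18 means of line and time with line as a block, and lines in 1 fit of 35 arrays over 18 groups. Of the probe sets, 13647 had 1 gene symbol in the platform annotation, 402 several and 4720 none, and 13544 of the first were found in the RefSeq gene table. The named genes are all probe sets of the 10 genes, list genes that passed the test for time, and for each probe set the 3 measured probe sets of other named genes with the highest r. The genes nos, bru1, run, slp1, lab, Ubx, abd-A, Abd-B, trh, dys, sal and pgc were not analysed here. The genes and the lists were chosen with earlier results of these data known. The fits were tested on simulated data. Alternatives were the scaling, pseudocounts of 4 and 64, measured probe sets only, array brightness, arrays as the unit and leaving out lines or arrays. The number of arrays limits the precision.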

Additional observations from a re-analysis of the deposited data

Results flagged for a closer look

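Within line Drosophila_134 the change from 5 h to 8 h of gt 1632684_s_at was -0.96, far from the nearest other line, Drosophila_145 at -0.43. For btd the change in Drosophila_145 was -0.37, against -0.10 in the nearest line, Drosophila_134. These were the 2 outlying values among 33 sets of 9 line values examined, and chance flags about 1 in 20 such sets. The change from 5 h to 8 h differed between lines for kni (limma adjusted p = 0.018) and tll (limma adjusted p = 0.039). On normalised values the steepest fall of both genes was in Drosophila_134, which started highest at 5 h. On the deposited scale the single 5 h array of Drosophila_17 was higher, at 13.4 for kni and 16.2 for tll. The means of Drosophila_134 there were 11.6 and 15.7. For kni the 5 h mean of Drosophila_23 was also higher on that scale, at 12.6. The fall of tll on that scale was -0.91 in Drosophila_17 and -0.86 in Drosophila_134, while kni still fell most in Drosophila_134, at -0.68. The 2 arrays of Drosophila_134 at 5 h read 17.2 and 14.5 for kni and 19.9 and 20.5 for tll. Those at 8 h read 1.21 and 2.32 for kni and 2.10 and 1.93 for tll, all below the background limit. Neither difference in change was called on the deposited scale or with a pseudocount of 4.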

How the results depend on the processing

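In the repeats of the change with time no called direction was reversed, and tll kept its fall in each. Among all repeats for single probe sets, 1929 kept their side of the threshold, 44 passed it newly and 117 no longer did. These include the F tests among lines, which have no direction. Contrasts of each line against the other 8 are not among them. There hb in Drosophila_75 went from -0.05, not called, to 0.40 on the deposited scale (limma adjusted p = 0.0032). On the deposited scale the calls for time were 3276 (328 rising, 2948 falling; 7 of the 11), for lines over both times 6259, at 5 h 4418, and for the change among lines 152 (0 of the 11 by limma, 4 at an unadjusted p under 0.05). Each line against the other 8, summed over lines, gave 11 calls among the 11 probe sets there, against 21 on normalised values, and 14425 among all. With arrays centred on their median the counts were 2883 for time (374 rising, 2509 falling), 3191 for lines at 5 h and 162 for the change among lines (1 of the 11). At a common 90th percentile time gave 1888 (1349 rising, 539 falling), against 723 rising and 688 falling on quantile-normalised values. A pseudocount of 4 gave 153 for the change among lines (0 of the 11 by limma, 4 unadjusted), and measured probe sets only gave 413. Arrays as the unit gave 2249 for time. With brightness as a covariate 2342 were called for lines over both times (4 of the 11) and 475 at 5 h (2 of the 11). Without lines Drosophila_75 and Drosophila_89 the counts were 2082 (2 of the 11) for lines over both times, 470 (2) at 5 h, 2282 (2) at 8 h and 158 (1) for the change. Leaving out a line or an RNA sample number gave 498 to 1555 calls for time and 1 to 5 of the 11. The lowest counts came without replicate 2, when tll alone was called and Drosophila_17 dropped out. Leaving out each array gave 3082 to 4118 (9 to 10) for lines over both times, 1047 to 1658 (5 to 9) at 5 h, 2730 to 4023 (3 to 5) at 8 h and 147 to 454 (0 to 4) for the change. The 5 of 11 at 5 h came without the RNA sample 2 of Drosophila_75. Of these 34 fits kni kept its difference in change in 32 and tll in 14. The RNA sample numbers did not pair the arrays, with correlations from -0.389 to 0.279. With a replicate block 2036 were called for time (4 of the 11) and 3525 for lines over both times (9 of the 11). The cause of these shifts was not tested. Dim signal limits all of these genes: 5 and 3 of 18 arrays at 8 h lay above background for tll and gt 1632684_s_at.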

Other observations

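The array at 5 h whose title names no line read 9.89 for hb, 3.58 for Kr, 7.40 for kni and 2.62 for knrl. It read 10.3 and 6.69 for the gt probe sets 1629953_at and 1632684_s_at, 7.33 for tll, 13.6 for hkb, 2.94 for oc, 5.80 for ems and 3.60 for btd. Its total deposited intensity was 104042, and knrl and oc lay below its background limit.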
